A study of Solanum lycopersicum with 8 samples.

Results

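HsfA3 (Solyc09g009100), HsfA6b (Solyc06g053960) and HsfA7 (Solyc09g065660) are 3 class A heat stress transcription factor (Hsf) genes of tomato, chosen by gene ID, and all 3 were found among the 29345 genes listed in each table. They were grouped as heat-raised genes, and the data went only partly with that name: HsfA3 and HsfA7 were higher after heat in anthers, while HsfA6b did not reach 1 CPM in any library and was not higher after heat beyond counting error. RNA 3′ ends were sequenced (massive analysis of cDNA ends, MACE, 1 read per transcript per the labels) from young leaves and from anthers of mixed developmental stages of 8-week-old tomato plants, cultivar Moneymaker. There were 8 libraries, 1 for each combination of tissue, genotype (wild type, WT, or A2AS) and treatment, so that every comparison of 2 libraries stands without a replicate. Heated plants spent 1 h at 39 °C and then 1.5 h at 24 °C, and the labels do not describe how control plants were handled. All plants grew in a glasshouse at 24 °C by day and 20 °C by night. A2AS is known from the study as a transgenic plant with suppressed HsfA2, and the labels give neither the promoter of the transgene, nor the number of lines, nor whether plants were pooled.

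Hsf proteins bind heat shock elements in the promoters of chaperone genes. Class A members carry an activating domain, and class B members lack it. In tomato HsfA1a is regarded as the master regulator that starts the response, and HsfA2 is a heat-induced partner that accumulates during stress and recovery. In Arabidopsis, HsfA3 is a later member of the response, switched on by the drought and heat factor DREB2A, and HsfA6b is known for a response to abscisic acid as well as heat. The Arabidopsis HsfA7 genes are themselves heat-induced. The names of Hsf genes used here come from published tomato nomenclature and not from the deposited tables.

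Library size was between 6243965 reads in heated A2AS leaf and 14764187 in control A2AS anthers, and levels are in CPM (reads per 1000000 reads of the library, with no length term). Brackets give 95% exact intervals, which cover counting error only, and 3 reads were worth 0.203 to 0.480 CPM. The tissue labels held: MS10 and MS32, tapetum regulators, lay between 10.1 and 26.7 CPM in anthers and at or below 0.260 in leaf, and RBCS2A, a Rubisco small subunit gene, lay between 155 and 209 CPM in anthers and at or above 7541 in leaf. HsfA2 itself stood at 10.3 CPM in WT control leaf and 21.7 in WT heated leaf, and at 2.25 and 2.72 in the A2AS leaf libraries. The WT anther libraries held 1.93 CPM without and 22.3 with heat. For A2AS anthers the values were 1.08 CPM in control and 39.3 in the heated library that carries this label. That last level goes against the label, so every direction given below for the heated anther library labelled A2AS carries this limit. WT control leaf also stood apart from the other 3 controls in heat-induced genes. Solyc03g082420, a small heat shock protein gene, was at 242 CPM there against 24.2 to 25.9 in the others, and MBF1c, a heat-induced coactivator gene, at 65.5 against 5.88 or less. Against it, A2AS control leaf and WT control anthers each had all 12 listed small heat shock protein genes lower by 2-fold or more, with medians of −2.45 and −2.67 log2. Of all genes averaging 2 CPM or more in the pair, 2.65% were lower by that much in A2AS control leaf and 18% in WT control anthers. Tests that use WT control leaf are therefore also given without its pair.

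HsfA3 was the most abundant of the 3 genes and, in leaf, one of the most abundant Hsf genes of all. Its levels were 38.8 CPM (35.3 to 42.6) in WT control leaf, 51.8 (48.1 to 55.7) in WT heated leaf, 39.6 (36.4 to 43.1) in A2AS control leaf and 38.1 (33.4 to 43.3) in A2AS heated leaf. In anthers they were 10.2 CPM (8.46 to 12.1) in WT control, 22.7 (20.3 to 25.4) in WT heat, 12.6 (10.9 to 14.5) in A2AS control and 31.5 (28.7 to 34.5) in the heated library labelled A2AS. WT heated leaf was highest and both control anthers were lowest. The lowest leaf level, in A2AS heated leaf, was 1.21-fold (1.03 to 1.42) above the highest anther level. How many genes part the tissues in this way was not counted, and 65.3% of 15220 genes were called between tissues in the test given below. The middle 3 leaf libraries could not be ordered, since neighbours differed by 1.02-fold (0.899 to 1.16) and 1.02-fold (0.869 to 1.20), and neither could the 2 control anthers (1.24-fold, 0.984 to 1.57). Among 23 listed Hsf genes HsfA3 ranked 1 by CPM in 3 leaf libraries and 2 in WT control leaf, where HsfB1, a class B member, stood at 40.1 CPM. In anthers its rank was 6 in WT control and 5 in A2AS control, and 3 in both heated libraries.

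HsfA7 was low everywhere except in heated anthers. In leaf its levels were 1.56 CPM (0.925 to 2.47) in WT control, 2.09 (1.40 to 3.01) in WT heat, 2.03 (1.35 to 2.93) in A2AS control and 3.84 (2.46 to 5.72) in A2AS heat. Control anthers held 1.21 CPM (0.676 to 1.99) in WT and 1.69 (1.10 to 2.50) in A2AS, and heated anthers 9.62 (8.05 to 11.4) in WT and 12.0 (10.3 to 13.9) in the library labelled A2AS. The 2 heated anther libraries stood above all others and could not be ordered between themselves (1.25-fold, 0.990 to 1.58). The 4 control libraries and WT heated leaf could not be ordered either, each differing from its neighbour by an interval that includes 1. A2AS heated leaf lay between those 5 libraries and the heated anthers, 1.84-fold (1.02 to 3.27) above WT heated leaf. In rank among the 23 Hsf genes HsfA7 went from 13 to 7 after heat in WT anthers and from 12 to 7 in those labelled A2AS.

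HsfA6b was close to the limit of detection. It stood at 0.824 CPM (0.357 to 1.48) in WT control leaf, 0.974 (0.552 to 1.70) in WT heated leaf, 0.652 (0.298 to 1.24) in A2AS control leaf and 0.480 (0.0991 to 1.40) in A2AS heated leaf. The anther values were 0.201 CPM for WT control, 0.135 for A2AS control and 0.206 for the heated library labelled A2AS, and WT heated anthers listed the gene at 0. All neighbours in this order differed by intervals that include 1. Over the 8 libraries the gene held 42.5 reads, 35 in leaf and 7.5 in anthers, and 3 of its 8 values were not whole reads, so part of its signal comes from reads that were counted in fractions. It was 1 of 4 listed Hsf genes that never reached 1 CPM.

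**Figure D1:**
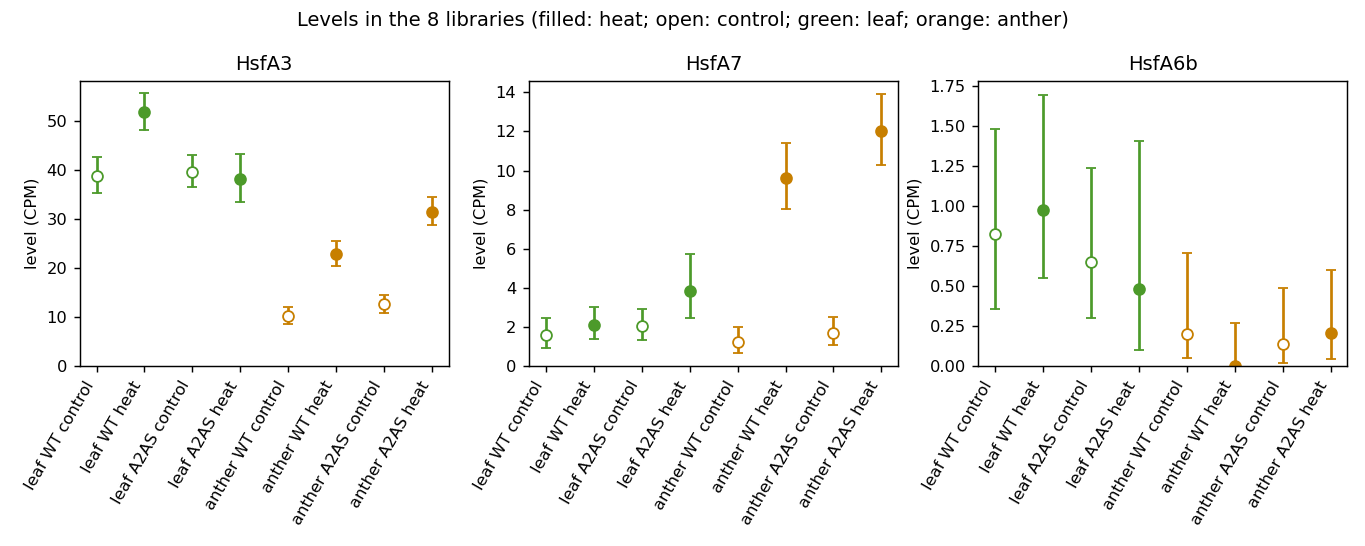
Level in CPM (vertical axis, a separate scale for each gene) of HsfA3, HsfA7 and HsfA6b in each of the 8 libraries (horizontal axis), with 95% exact counting intervals as bars. Green is leaf, orange is anther, filled points are heated and open points control. HsfA3 is highest in WT heated leaf at 51.8 CPM, HsfA7 reaches 9.62 and 12.0 CPM in heated anthers, and HsfA6b stays below 1 CPM.

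Heat was compared with control first within each pair of libraries. In WT anthers HsfA7 was 7.96-fold (4.65 to 14.6) and HsfA3 2.24-fold (1.82 to 2.78) higher after heat. In the anthers labelled A2AS HsfA7 was 7.09-fold (4.65 to 11.3) and HsfA3 2.50-fold (2.10 to 2.98) higher. For each gene the ratio of either genotype lay inside the interval of the other. Both genes were past 2-fold on the log2(CPM + 1) scale in both anther pairs, as were 2.44% of 14898 genes in WT and 2.19% of 15006 in A2AS (genes whose 2 libraries average 2 CPM or more). HsfA7 met that minimum only through its heated libraries, so its share is a description and not a measure of how unusual it is. In WT anthers 0.503% of genes had a log2 ratio at least as high as HsfA7 and 1.95% one at least as high as HsfA3.

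In leaf the same genes moved little. After heat WT leaf had 1.33-fold (1.18 to 1.50) more HsfA3, a ratio that 22.8% of genes reached, and A2AS leaf 1.04-fold (0.892 to 1.22) less. For HsfA7 the heated level was 1.34 times (0.720 to 2.56) that of control in WT leaf, an interval that includes 1, and 1.89 times (1.05 to 3.39) in A2AS leaf. Neither HsfA3 nor HsfA7 was past 2-fold on the log2(CPM + 1) scale in leaf. Of genes averaging 2 CPM or more in the pair, 3.97% were higher by that much in WT and 2.65% in A2AS. The WT leaf pair of HsfA7 averaged 1.83 CPM, below that minimum. HsfA6b was below it in both leaf pairs, and with levels under 1 CPM it cannot pass 2-fold on this scale. For HsfA6b the WT leaf pair gave a level 1.18-fold (0.522 to 3.39) higher after heat, and the A2AS leaf pair one 1.36-fold (0.339 to 7.80) lower. In anthers both of its pairs were at or under 3 reads, so no ratio is given.

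**Figure D2:**
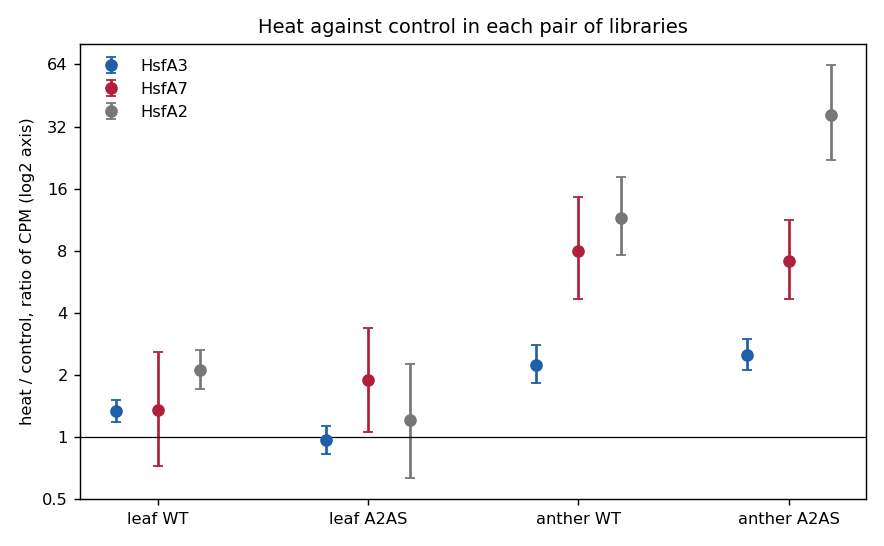
Ratio of CPM after heat to CPM in control (vertical axis, log2 scale) for HsfA3, HsfA7 and, for comparison, HsfA2 in the 4 pairs of libraries (horizontal axis), with 95% exact counting intervals as bars and a line at 1. HsfA7 stands at 7.96 and 7.09 in the anther pairs and at 1.34 and 1.89 in the leaf pairs, and HsfA3 at 2.24 and 2.50 against 1.33 and 0.961.

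Tests treated the pairs as repeats, so that their error is the spread of a response over genotypes or tissues and not over replicate plants. In the 2 anther pairs HsfA7 rose by 2.27 ± 0.20 log2 (SE; limma adjusted p = 0.00378 over 15220 genes) and HsfA3 by 1.17 ± 0.15 (limma adjusted p = 0.0128), each higher in 2 of 2 pairs. The error of this test was pooled over the heat ratios of both tissues, so the leaf pairs enter it too. Leaving out the WT leaf pair cannot change the anther differences of 2.27 and 1.17 log2, which are means of the anther ratios alone. It changes only their error, so it is no check on their size. The test was chosen after the data were seen and called 3.92% of genes (2.15% as higher). Among the 12 listed Hsf genes that were tested it called 3, HsfA2 (3.63 ± 0.34 log2, limma adjusted p = 0.00467) besides HsfA3 and HsfA7, and none fell. The median over the 12 was 0.30 log2, against 0.06 over all genes. With no minimum on expression both calls were lost (limma adjusted p = 0.0528 for HsfA7 and 0.0765 for HsfA3).

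In the 2 leaf pairs neither gene passed: HsfA7 differed by 0.47 ± 0.20 log2 (limma adjusted p = 0.209) and HsfA3 by 0.18 ± 0.15 (limma adjusted p = 0.513), with 5.82% of genes called (3.56% as higher). Without the WT leaf pair the HsfA3 value turned to −0.055. Over all 4 pairs, where 2.62% of genes were called (1.87% as higher), HsfA7 differed by 1.37 ± 0.38 log2 and was higher in 4 of 4 pairs (limma adjusted p = 0.103). HsfA3 differed by 0.67 ± 0.22 and was higher in 3 of 4 pairs (limma adjusted p = 0.138). Without the WT leaf pair the values were 1.74 for HsfA7 and 0.76 for HsfA3 (limma adjusted p = 0.146 and 0.255). HsfA6b was below the minimum, and with none it differed by −0.06 ± 0.09 log2 (limma adjusted p = 0.775, 0.176% of genes called). Median-ratio scaling put the all-gene median of this comparison at −0.05 log2 in place of 0.06, and HsfA7 then stood at 1.27 and HsfA3 at 0.55.

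The heat ratio was larger in anther than in leaf for both genes, but the difference did not pass among all genes. For HsfA7 it was 1.79 ± 0.28 log2 (limma adjusted p = 0.0553, unadjusted p = 0.000701) and for HsfA3 1.00 ± 0.21 (limma adjusted p = 0.0930, unadjusted p = 0.00288), with 0.953% of genes called (0.361% as larger in anther). It was not particular to them: HsfA2 had 3.03 ± 0.48 (limma adjusted p = 0.0553) and HSP101 2.05 ± 0.27 (limma adjusted p = 0.0397). Of the 12 listed small heat shock protein genes 4 were called as larger in anther, with a median of 2.21 over the 12. Solyc05g014280 among them went the other way (−2.87), and the 2 listed HSP90 genes had a median of −0.07. The HsfA7 call turned on single pairs: adjusted p was 0.0122 without the A2AS anther pair and 0.0186 without the WT anther pair, against 0.137 without the A2AS leaf pair and 0.186 without the WT leaf pair, whose control stood apart in heat genes (1.59 log2, and 1.23 for HsfA3 with adjusted p = 0.162). It was 0.0466 with a pseudocount of 5. With a pair left out, 1 tissue has a single pair, which is assumed to vary like the rest.

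Bulk tissue cannot tell fewer cells of a type from less RNA per cell, and the anther libraries differed in other markers. The 3 anther markers summed to 330 CPM in WT control, 159 in WT heat, 164 in A2AS control and 199 in the heated library labelled A2AS, and all 3 were above 0 in each. Most of that sum was LAT52, a pollen-expressed gene, with 295 CPM before and 106 after heat in WT anthers, and 136 and 163 in those labelled A2AS. The other 2 markers were higher after heat in both anther pairs, MS10 at 16.0 and 26.7 CPM in WT and 10.1 and 17.2 in A2AS, and MS32 at 19.2 and 25.7 in WT and 17.6 and 18.6 in A2AS. In WT anthers the lower sum after heat was thus that of LAT52. The HsfA7 ratios were 7.96 in the WT pair, where LAT52 was lower after heat, and 7.09 in the A2AS pair, where it was higher. The part of such differences in the results was not tested.

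Ratios within a library do not depend on how it was scaled. HsfA1a, which lay between 17.1 and 27.2 CPM in the 8 libraries, served as the base. HsfA7 stood at 0.0556 of HsfA1a in WT control anthers and 0.424 in WT heated anthers, and at 0.0729 and 0.493 in those labelled A2AS. HsfA3 went from 0.467 to 1.00 of HsfA1a in WT anthers and from 0.542 to 1.29 in those labelled A2AS. In leaf HsfA3 was already above HsfA1a in control, at 1.49 in WT and 2.32 in A2AS, and stood at 1.90 and 2.09 after heat. HsfA7 in leaf stayed between 0.0600 and 0.211 of HsfA1a. HsfA3 outnumbered HsfA7 in all 8 libraries, by 24.9-fold in WT control leaf and by 2.36-fold in WT heated anthers, the widest and the closest of the 8.

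The 3 genes held 20.5% of all reads of the 23 Hsf genes in WT control leaf and 21.6% in WT heated leaf, and 29.9% and 26.2% in A2AS leaf. In anthers they held 7.54% in WT control and 15.7% in WT heat, and 9.59% and 17.8% in those labelled A2AS. HsfA3 alone went from 6.60% (5.52 to 7.80) to 11.0% (9.92 to 12.3) in WT anthers, and HsfA7 from 0.785% (0.440 to 1.29) to 4.67% (3.93 to 5.52). The summed level of the Hsf genes was 154 CPM in WT control anthers and 206 in WT heated anthers, and the 3 genes made up 40.03% of that difference. They made up 30.6% of the difference in anthers labelled A2AS (150 and 246 CPM), and with HsfA2 added the shares were 79.2% and 70.5%. These are shares of a net difference, which also holds falls and is smaller for them. HsfB3a, for instance, went from 13.2 to 7.18 CPM in WT anthers and from 9.82 to 7.53 in those labelled A2AS. In WT leaf the 3 genes made up 25.6% of the difference between 201 and 255 CPM, nearly all of it HsfA3, and in A2AS leaf 0.541% of that between 142 and 162. The A2AS leaf share is a sum of opposite signs, 8.89% for HsfA7, −7.51% for HsfA3 and −0.843% for HsfA6b.

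**Figure D3:**
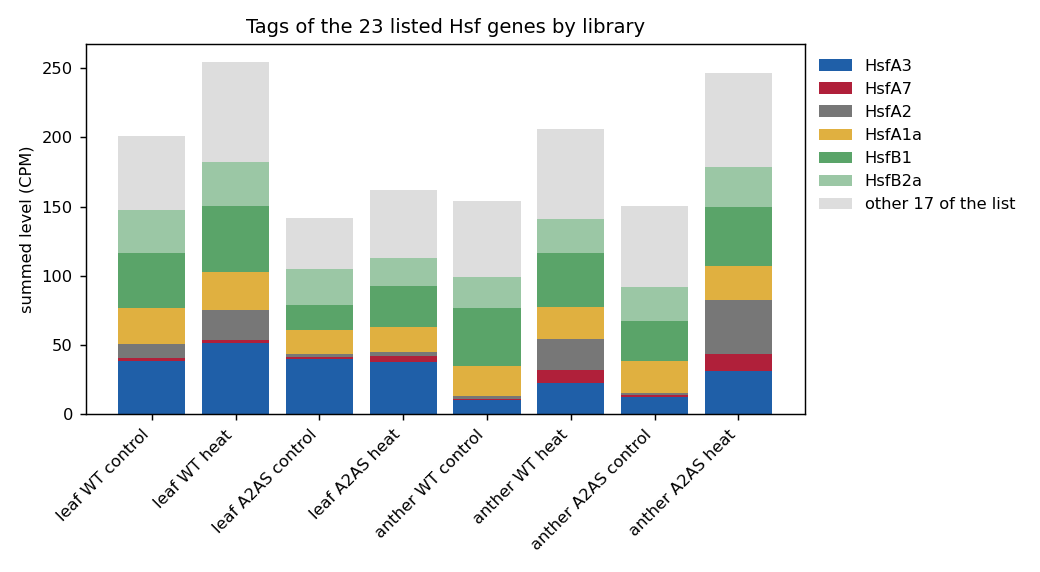
Summed level in CPM (vertical axis, from 0) of the 23 listed Hsf genes in each library (horizontal axis), stacked by gene. HsfA3 makes up the lowest part of each bar, from 10.2 CPM in WT control anthers to 51.8 in WT heated leaf, and HsfA7 is a visible part in the 2 heated anther libraries.

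Few of the other Hsf genes were past 2-fold with heat. In the limma test over all 4 heat pairs none of the 12 tested Hsf genes passed. There 8 of the 12 had an unadjusted p under 0.05, as had 3598 of all 15220 genes. HsfA5 (0.44 ± 0.11 log2, limma adjusted p = 0.0832) ranked 969 by p, ahead of HsfA7 (1355) and HsfA3 (2218). In the pairs, 4 of 23 were at least 2-fold higher on the log2(CPM + 1) scale in WT anthers and 5 of 23 in those labelled A2AS, with none lower. Over all genes whose pair averages 2 CPM or more, 2.44% were higher and 3.46% lower by that much in WT anthers. In those labelled A2AS 2.19% were higher and 2.81% lower. The 23 Hsf genes were counted without that minimum. With none, the shares were 1.56% higher and 2.45% lower in WT, and 1.48% and 1.81% in A2AS. Median log2 ratios of the 23 Hsf genes were 0.23 and 0.27, against 0.08 and 0.06 over all genes with the minimum. Besides HsfA2, HsfA3 and HsfA7 the Hsf genes higher by 2-fold were HsfB2b, a class B member, in both pairs and HsfA1b in the second. HsfB2b went from 1.05 to 5.03 CPM in WT anthers (4.80-fold, 2.63 to 9.47) and from 0.542 to 3.29 in those labelled A2AS (6.08-fold, 2.85 to 14.9). HsfA1b went from 0.271 to 1.92 CPM in anthers labelled A2AS (7.09-fold, 2.48 to 27.8). In WT leaf 1 of 23 was higher (HsfA2) and 1 lower (HsfB2b, 1.65 to 0.289 CPM). Of all genes with the minimum, 3.97% were higher and 1.53% lower there. In A2AS leaf none was past 2-fold, where 2.65% of those genes were higher and 1.3% lower. Of the Hsf genes that reach 10 CPM in any library, 7 others did not pass the anther heat test. HsfB2a (22.2 to 29.4 CPM in anthers), HsfA8 (18.6 to 22.2) and HsfA1a (21.8 to 24.3) varied less there than HsfB1 (29.1 to 42.3). Of the anther pairs only the one labelled A2AS had more HsfB1 after heat, 42.3 CPM (39.0 to 45.8) against 29.1 (26.4 to 32.0). The WT anther pair held 41.9 CPM (38.4 to 45.7) of it before heat and 39.5 (36.2 to 43.0) after, intervals that overlap. HsfA5 lay between 6.45 and 10.8 CPM in anthers and HsfA4a between 3.14 and 4.54. HsfB3a, a class B member, ranged from 7.18 to 13.2 CPM in anthers and had the lowest estimate of the 12, −0.57 ± 0.21 log2 (limma adjusted p = 0.197).

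The 20 listed chaperone genes are from families with known targets of Hsf proteins, and whether each is a target was not tested. All 12 small heat shock protein genes passed the limma test in the leaf pairs and in the anther pairs, each higher after heat. That test called 5.82% of all genes in leaf (3.56% as higher) and 3.92% in anthers (2.15% as higher). HSP101 also rose in both tissues, and of the 5 HSP70 genes 3 rose and 1 fell in leaf and 4 rose and 1 fell in anthers. Of the 2 HSP90 genes Solyc06g036290 rose in both tissues, and Solyc03g007890 did not pass in either (limma adjusted p = 0.0848 in anthers and 0.0813 in leaf). Solyc03g082420, the small heat shock protein gene with the highest mean, reached 4221 CPM in leaf and 1393 in anthers, and Solyc03g117630, the first of the HSP70 genes by mean, 609.9 and 1247. HSP101 reached 156 CPM in leaf and 669 in anthers, and the HSP90 gene Solyc06g036290 471 and 623. MBF1c was lower after heat in WT leaf (65.5 and 32.0 CPM) and higher in A2AS leaf (5.44 and 13.0), and went from 5.88 to 92.7 CPM in WT anthers and from 4.4 to 246 in those labelled A2AS. In leaf, where HsfA3 and HsfA7 did not pass, the 12 small heat shock protein genes had a median heat difference of 4.05 log2, against 6.35 in anthers. The leaf pairs had medians of 3.39 in WT, where the control already held more of these transcripts, and 4.70 in A2AS.

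HsfA3 differed between tissues over the 4 pairs, and HsfA7 differed beyond counting error only in heated plants. HsfA3 was lower in anther than in leaf by 1.21 ± 0.25 log2 over the 4 tissue pairs (limma adjusted p = 0.00251) and in 4 of 4 pairs, in a comparison in which 65.3% of genes were called (41.6% as higher in anther). It was 3.83-fold (3.13 to 4.70) lower in WT control, 2.28-fold (1.99 to 2.61) in WT heat, 3.15-fold (2.66 to 3.74) in A2AS control and 1.21-fold (1.03 to 1.42) in A2AS heat. Without the WT control pair the difference over pairs was −1.0 log2 (limma adjusted p = 0.00788). Under median-ratio scaling the A2AS values were 4.24 and 1.70, and the all-gene median was 0.04 in place of 0.30 log2. On the log2(CPM + 1) scale HsfA3 was past 2-fold in 3 of 4 pairs, where the share of genes lower in anther by that much was 18% in WT control, 18.3% in WT heat, 15.4% in A2AS control and 14.7% in A2AS heat. HsfA7 was lower in anthers in both control pairs, by 1.29-fold (0.615 to 2.75) in WT and 1.20-fold (0.674 to 2.14) in A2AS, intervals that include 1. After heat it was higher in anthers, by 4.60-fold (3.06 to 7.13) in WT and 3.12-fold (2.03 to 5.0) in A2AS. Both heated pairs were past 2-fold on the log2(CPM + 1) scale, as were 19.3% of genes in WT and 27% in A2AS, against 21.3% and 26.8% in the control pairs. Its mean difference over the 4 pairs, 0.71 ± 0.35 log2, did not pass (limma adjusted p = 0.110). Without either control pair it did (1.01 log2 with adjusted p = 0.0304 without the WT pair, and 1.00 with 0.0459 without the A2AS pair). HsfA6b was 4.09-fold (0.806 to 18.5) lower in anthers in WT control and 4.82-fold (0.997 to 45.8) in A2AS control, intervals that include 1. In WT heat the anther library held 0 reads, and the leaf level was 4.46 times the level that 3 reads would give there. Counting error allows up to 0.269 CPM in that anther library and 0.552 to 1.70 in leaf, so the ratio is not a lower bound. In A2AS heat both libraries held 3 reads or fewer. With no minimum on expression the test called it (−0.61 ± 0.12 log2, limma adjusted p = 0.00997), as it did 43.9% of genes, and the single pairs rest on at most 14 reads a library.

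A2AS was compared with WT because A2AS is known from the study as a plant with suppressed HsfA2. In these libraries HsfA2 was lower in A2AS in both leaf pairs. In control anthers its levels were 1.08 CPM (0.619 to 1.76) in A2AS and 1.93 (1.24 to 2.88) in WT, with intervals that overlap. Neither HsfA3 nor HsfA7 was past 2-fold on the log2(CPM + 1) scale in any of the 4 pairs, where 2.14% of genes were higher and 2.65% lower in A2AS control leaf, 3.42% and 6.47% in heated leaf, 0.734% and 1.45% in control anthers, and 1.27% and 1.42% in heated anthers. These shares are of genes averaging 2 CPM or more in the pair. HsfA7 was below that in control leaf (1.80 CPM) and control anthers (1.45 CPM). HsfA7 was higher in A2AS in 4 of 4 pairs, by 1.30-fold (0.694 to 2.50) in control leaf, 1.84-fold (1.02 to 3.27) in heated leaf, 1.40-fold (0.710 to 2.86) in control anthers and 1.25-fold (0.990 to 1.58) in heated anthers. Only the interval of heated leaf lies above 1, and over the 4 pairs the difference of 0.37 ± 0.16 log2 did not pass (limma adjusted p = 0.582, unadjusted p = 0.0545). The direction was the same under median-ratio scaling, where the difference was 0.44 log2. No gene was called in this comparison (0% of 15220), and 1313 had an unadjusted p under 0.05. In the heated leaf pair HsfA2 was 7.98-fold lower in A2AS, and in the heated anther pair it was 1.76-fold higher in the library labelled A2AS. HsfA7 was higher in both.

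HsfA3 had no common direction. The A2AS level was 1.02 times (0.899 to 1.16) that of WT for control leaf and 0.736 times (0.633 to 0.853) for heated leaf. For anthers it was 1.24 times (0.984 to 1.57) without heat and 1.38 times (1.20 to 1.60) with heat. The lower value in heated leaf depends on scaling: all genes had a median of −0.29 log2 there, and under median-ratio scaling, with that median at 0.01, HsfA3 was at 0.918 times WT. Over the 4 pairs it differed by 0.08 ± 0.17 log2 (limma adjusted p = 0.870), and without the control leaf pair by 0.10. The HsfA7 difference without that pair was 0.41 log2 (limma adjusted p = 0.999 for both). The heat ratio of HsfA3 was 1.33 (1.18 to 1.50) in WT leaf and 0.961 (0.822 to 1.12) in A2AS leaf, so counting error alone does not span the gap, but over both tissues the heat ratio did not differ by genotype beyond its spread (−0.15 ± 0.49 log2, limma adjusted p = 1.00). For HsfA7 that difference was 0.21 ± 0.83 log2 (limma adjusted p = 1.00). Without the WT leaf pair the values were −0.49 and −0.79 log2 (limma adjusted p = 1.00 for both). No gene was called (0%), with 228 at an unadjusted p under 0.05. HsfA6b was lower in A2AS by 1.26-fold (0.421 to 3.40) in control leaf and by 2.03-fold (0.587 to 11.4) in heated leaf, which counting error allows.

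**Figure D4:**
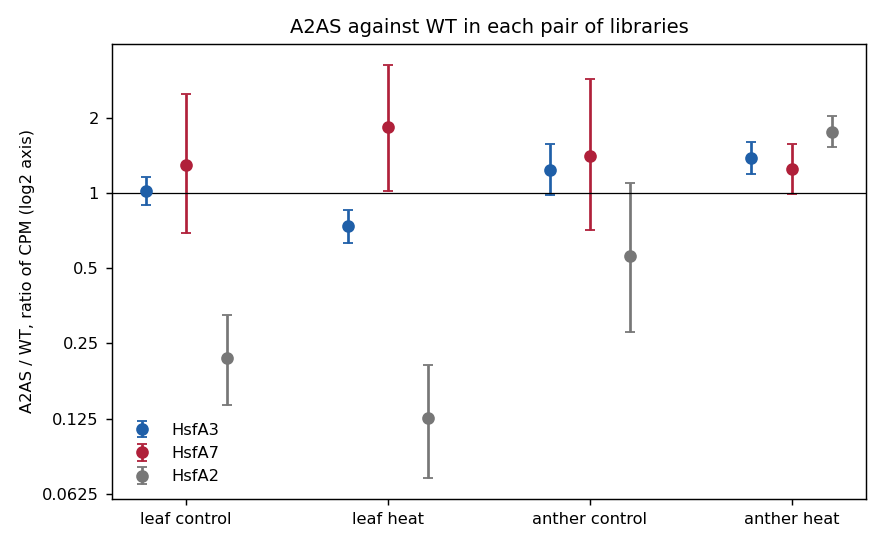
Ratio of CPM in A2AS to CPM in WT (vertical axis, log2 scale) for HsfA3, HsfA7 and the targeted HsfA2 in the 4 pairs of libraries (horizontal axis), with 95% exact counting intervals as bars and a line at 1. HsfA7 lies above 1 in each pair, from 1.25 to 1.84, HsfA3 lies between 0.736 and 1.38, and HsfA2 goes from 0.125 in heated leaf to 1.76 in heated anthers.

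The pattern of HsfA7 over the 8 libraries was most like that of 2 genes the files do not name. Pearson's r of log2(CPM + 1) with Solyc02g079790 was 0.988 (Spearman's rho 0.833), and that gene stood at 9.11 and 9.53 CPM in heated anthers and between 5.15 and 6.41 in the other 6 libraries. With Solyc01g094340 r was 0.974 (rho 0.905), at 20.3 and 20.0 CPM in heated anthers, 13.5 in A2AS heated leaf and 5.96 to 9.09 in the rest. Of the listed genes the small heat shock protein gene Solyc06g076540 was most like HsfA7 (r = 0.934, rank 8 of 15219 genes), at 376 and 316 CPM in heated anthers and 23.6 and 11.8 in heated leaf. HSP101 (Solyc03g115230), a disaggregase, followed at r = 0.853. For HsfA2 r was 0.691, and for HsfA3 it was 0.18. All of these values share the same 8 libraries and their scaling, and the 2 heated anther libraries stand apart from the other 6 in HsfA7.

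The pattern of HsfA3 was most like that of Solyc07g005570 (r = 0.979, rho = 0.929) and Solyc06g076300 (r = 0.977, rho = 0.976), which the files do not name either. Solyc07g005570 lay between 34.3 and 40.4 CPM in leaf, at 12.5 and 13.3 in control anthers and at 21.1 and 24.6 in heated anthers. Solyc06g076300 lay between 15.1 and 22.7 CPM in leaf, at 4.83 and 5.89 in control anthers and at 10.3 and 11.1 in heated anthers. Both were thus higher in leaf, and higher in heated than in control anthers, as HsfA3 was. No listed gene came near: RBCS2A had r = 0.767 (rank 2035) and HsfA4a, another class A Hsf, r = 0.765, while HsfA2 had r = 0.479.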

How the data were processed

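The authors deposited 1 table of CPM values per library (tags per 1000000, under the name TPM but without division by length). Per the labels' protocols, poly(A) RNA was bound and the last 500 bp were sequenced. The submitters' processing notes name FastQC. Not given in the sources used here are the aligner, how reads were assigned to genes, strand use, build and gene models. Reads per library were taken as 1000000 divided by the commonest step. Between 77.6% and 83.9% of values were then whole reads within 0.001, below the 95% set, so no count model was run. Values of HsfA3 and HsfA7 were whole reads in 8 of 8 libraries.

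Ratios are of the CPM values, with exact conditional binomial intervals from rounded reads, levels have exact Poisson intervals, and shares exact binomial (Clopper-Pearson) ones. Tests used limma 3.58.1 in R 4.3.3 on log2(CPM + 1), which understates low genes, on genes averaging 2 CPM or more over the 8 libraries, with a mean-variance trend and Benjamini-Hochberg adjustment at 0.05 over all genes. Heat, genotype and tissue were tested with the other labels as block (4 pairs each). Differences of heat ratios were tested over the 4 heat ratios. The heat tests within a tissue were added after the data were seen, and their error was pooled over the 4 heat ratios of both tissues. The steps were tested on simulated data. HsfA7 had a mean of 2.07 CPM without the heated anthers, HsfA3 31.9 and HsfA6b 0.545.

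The genes and lists were chosen with earlier results of these data known. Named genes are the 3 members, HsfA2, Hsf genes reaching 10 CPM or 2-fold with heat, the gene of highest mean in each chaperone list and, for each member above the minimum, the 2 genes and 2 listed genes of highest Pearson r. HSP101, LAT52, MS10, MS32 and RBCS2A are also named as list genes or tissue markers. The RefSeq gene table (41476 rows) holds no ID that matches the deposited tables, so list names rest on published nomenclature. No sequence is shown, as none was used here.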

Additional observations from a re-analysis of the deposited data

Results flagged for a closer look

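The difference between anther and leaf went opposite ways for HsfA7 in control and heated plants. On the log2(CPM + 1) scale HsfA7 was lower in anther in both control pairs (−0.21 in WT and −0.17 in A2AS) and higher in both heated pairs (1.78 and 1.42), so the mean of the heated pairs was 1.79 above that of the control pairs. This is the same quantity as the difference of heat ratios between tissues, which was 1.79 ± 0.28 (limma adjusted p = 0.0553, with 0.0122 to 0.186 over the fits that leave out 1 pair). The 2 control differences are within counting error.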

How the results depend on the processing

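Of 153 recomputed limma values of HsfA3 and HsfA7, 140 kept their direction and their side of the threshold. With no minimum, where 28978 genes were tested, the heat calls in anthers were lost, for HsfA7 (2.27 log2, adjusted p = 0.0528) and HsfA3 (1.17, 0.0765). The limma unadjusted p rose as well, from 2.66e-05 to 0.000289 for HsfA7 and from 0.000193 to 0.000913 for HsfA3. The cause of the lost calls was not tested. With a pseudocount of 5 the HsfA7 difference of heat ratios between tissues passed (1.07, adjusted p = 0.0466), the cause was not tested, and leaving out a pair gave 1.59 to 2.0. Leaving out a pair gave 0.35 to 1.01 for HsfA7 in anther against leaf, 1.07 to 1.74 and 0.48 to 0.92 for heat in HsfA7 and HsfA3, −0.039 to 0.26 for A2AS in HsfA3 and −0.055 to 0.41 for heat in leaf in HsfA3. For the heat ratio of A2AS minus WT it gave −0.80 to 0.51 in HsfA3 and −0.79 to 1.20 in HsfA7. Without the WT control or the A2AS control pair HsfA7 was called between tissues (1.01 and 1.00).

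Counts of calls over all genes moved more. Heat called 51 to 468 genes (399 as reported), the difference of heat ratios 0 to 608 (145), heat in anthers 148 to 771 (597) and heat in leaf 27 to 1560 (886). Anther against leaf called 6382 (67.6% of 9441 genes, minimum of 10 CPM) to 12708 (43.9% of 28978, no minimum), with 9932 as reported (65.3% of 15220). The number of genes tested thus changed with the minimum. A minimum pair mean of 10 CPM lowered the 2-fold counts as well, in WT anthers from 363 to 237 higher and from 516 to 248 lower after heat. The genes tested fell from 14898 to 9288, so the share went from 2.44% to 2.55% higher and from 3.46% to 2.67% lower. Scaling by median ratio or without the 100 most abundant genes left 54 of 60 pair ratios inside their counting interval, and the other 6 were ratios of HsfA3 in pairs with an A2AS leaf library. Depth limits HsfA6b most, at no more than 14 reads in any library. No paired analysis by replicate number was possible because each group has 1 library.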
